A study of Homo sapiens with 10 samples.

Results

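The comparison described here sets HEK293T cells given the activator VP64 against cells given a guide RNA only, across every gene cluster in the authors' tables. Its members are 4 of the 10 poly(A) RNA-seq libraries of the series, chosen by their titles: VP64 replicates 1 and 2, and guide-only control replicates 1 and 2. HEK293T is a human embryonic kidney line. According to the labels, VP64 cells were transfected with an activator built on dCas9, the catalytically dead form of Cas9, together with a guide RNA against HBG1. The control is labelled as guide only, and the labels do not say whether it also carried dCas9. All 4 libraries share the line and a lipid transfection. The target of the guide in the control, the promoter driving the activator and the time of harvest are not stated in the labels. No library is labelled as dCas9 without an activation domain, so dCas9 and its VP64 domain cannot be told apart in this comparison.

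HBG1 encodes a gamma chain of fetal haemoglobin, a protein of red cell precursors. dCas9 binds where its guide pairs with DNA and does not cut. VP64 is a chain of copies of the minimal activation domain of VP16, a herpes simplex virus protein, and it draws the transcription machinery to the site where it is tethered. Fused directly to dCas9 it is the simplest of the activators in the series, and VPR, SAM and Suntag bring further domains or further copies to the same site.

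The depth of the 4 libraries ran from 3316534 expected counts, RSEM's estimates of reads per cluster, in VP64 replicate 2 to 6072335 in control replicate 2. Of 31848 gene clusters, 13241 passed the filter on low counts and were tested. They held 99.8% of the counts in each of the 4 libraries. In all 4 libraries, 14607 clusters had a count above 0. The clusters carry numbers and 82960 transcript identifiers, of which 4 were found in the gene name tables used here, none of them in a cluster that changed. Clusters are therefore described by number, transcript length and counts, HBG1 was not located, and the markers of the line could not be looked up. Whether replicates came from separate cultures is not stated, and the spread behind every p-value may therefore be technical. Replicate libraries were not copies of each other: their chi-square per cluster was 1.70 in VP64 and 2.61 in the control, where counting error alone gives about 1.

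Few clusters passed the test between VP64 and guide-only cells in the fit reported, and most of those changed by small amounts. The number that passed depended on the fit, as given below, and is no measure of how many clusters differ. By edgeR's quasi-likelihood test, 108 clusters passed a Benjamini-Hochberg adjusted p of 0.05 (called below), which is 0.816% of those tested. Of these, 88 were higher in VP64 cells (0.665%) and 20 were lower (0.151%). The median log2 change was 0.54 among the higher clusters and -0.58 among the lower ones, against -0.002 over all tested clusters. Of the 108, 9 changed at least 2-fold (0.0680% of those tested), 5 of them higher and 4 lower. An unadjusted p under 0.05 was found for 1901 clusters, and the smallest adjusted p was 0.00880.

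All 88 higher clusters had both VP64 libraries above both control libraries, and all 20 lower clusters had both below. Over all tested clusters the groups were separated in this way with VP64 higher in 24.0% and with VP64 lower in 23.5%. The higher clusters together took 3.96 ± 0.0590% of all counts in VP64 cells and 3.01 ± 0.0333% in guide-only cells (SD, n = 2 each). The lower clusters took 0.288 ± 0.00132% in VP64 cells and 0.418 ± 0.00464% in guide-only cells. These sums describe the clusters the test had picked and are no further evidence of a change.

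The calls depended on both VP64 libraries. Without VP64 replicate 1 no cluster passed edgeR's test, with 1314 at an unadjusted p under 0.05, and without VP64 replicate 2 none passed either, with 1334. The number fell to 32 without control replicate 1 and to 3 without control replicate 2, of which 12 and 1 were among the 108. It also moved with libraries of groups that are not compared here, which share the estimate of the spread. Without a Suntag library it was 362 or 359, and without a SAM library 69 or 66. A fit of the 4 compared libraries alone called 617 clusters, 418 higher and 199 lower, and the 108 were all among them. DESeq2 called 163 clusters, 125 higher and 38 lower, of which 92 were among the 108.

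**Figure D1:**
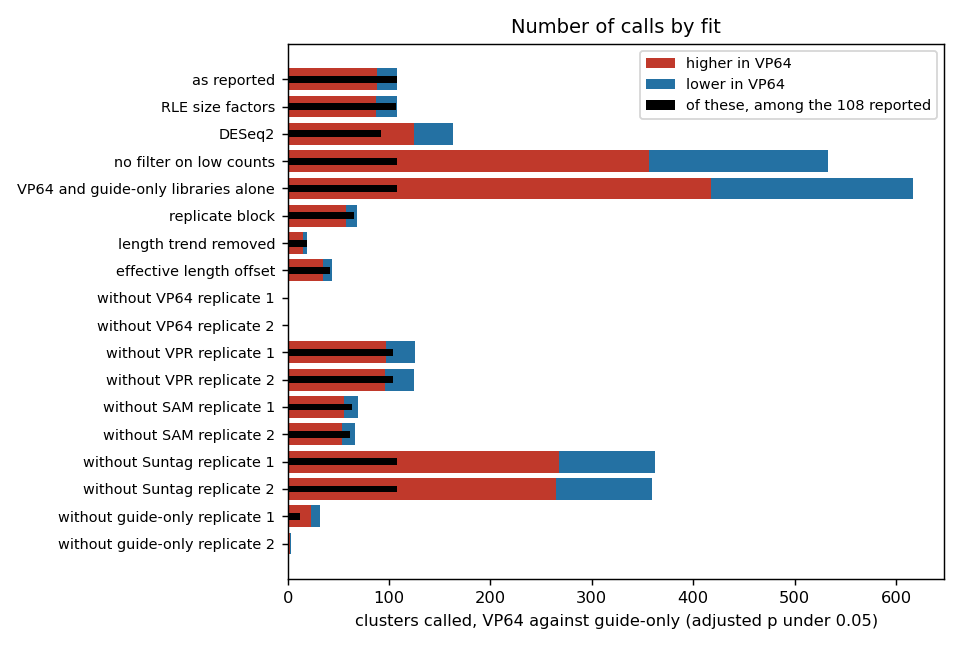
Number of clusters called between VP64 and guide-only cells (horizontal axis, adjusted p under 0.05) in the fit reported and in each alternative fit (rows). Red bars count clusters higher in VP64, blue bars lower ones, and the thin black bars those among the 108 reported. No cluster was called without either VP64 library, and 617 were called when the 4 libraries were fitted alone.

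Most of the called clusters had counts that were not whole numbers, as RSEM gives when reads fit several transcripts and are divided between clusters. Of the 108, 19 had whole counts, to within 0.01, in each of the 4 libraries (17.6%), against 5222 of the 13241 tested (39.4%). None of the 9 clusters that changed at least 2-fold had whole counts. Levels of whole-count clusters are therefore given first, and the 2 largest called rises and 2 largest called falls among them are identified by number.

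Cluster 22076, a cluster of 4 transcripts and 803 nt whose first transcript is listed as uc003ihy.3, held 74 and 49 counts in the VP64 libraries, against 34 and 48 in the control libraries. As CPM, the count set against all counts of its library, it stood at 13.8 and 14.8 in VP64 cells, against 7.30 and 7.90 in guide-only cells. Both VP64 libraries lay above both control libraries, as was required of an identified cluster. The raw counts of VP64 replicate 2 and control replicate 2 were nearly equal, since the VP64 library was the shallower. The fitted log2 change was 0.96 ± 0.21 (SE, edgeR adjusted p = 0.0469), a 1.94-fold rise. The ratio of summed counts over library totals was 1.86 (95% exact interval 1.39 to 2.49). Fitted folds were somewhat larger than such ratios for clusters that rose, because edgeR's TMM scaling factors were 0.979 and 0.976 for the VP64 libraries and 1.01 and 1.03 for the control libraries.

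Cluster 14592, with 1 transcript of 546 nt (uc002mzg.3), held 226 and 161 counts in VP64 cells, against 118 and 149 in guide-only cells. This was 45.4 ± 4.47 CPM in VP64 cells and 24.9 ± 0.558 CPM in guide-only cells (SD, n = 2 each). Its log2 change was 0.92 ± 0.15 (SE, edgeR adjusted p = 0.0190), and the ratio of summed counts was 1.79 (95% exact interval 1.53 to 2.11). On the deposited TPM scale, which divides by effective length and so allows levels of different clusters to be compared, cluster 14592 stood at 210.0 ± 23.2 TPM in VP64 cells and 124 ± 2.55 TPM in guide-only cells. Cluster 22076 was less abundant on that scale, with 41.3 ± 1.52 TPM in VP64 cells and 23.4 ± 1.41 TPM in guide-only cells.

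Cluster 6994 showed the largest fall among called clusters with whole counts. This cluster of 5 transcripts and 7452 nt (first transcript uc001tob.3) held 53 and 30 counts in the VP64 libraries, against 94 and 105 in the control libraries. The level was 9.47 ± 0.606 CPM in VP64 cells and 18.7 ± 2.04 CPM in guide-only cells (SD, n = 2 each). The log2 change was -0.90 ± 0.20 (SE, edgeR adjusted p = 0.0465), with a ratio of summed counts of 0.516 (95% exact interval 0.395 to 0.670).

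Cluster 3083, of 6 transcripts and 5002 nt (first transcript uc001itv.4), held 106 and 62 counts in VP64 cells, against 161 and 206 in guide-only cells. It stood at 19.3 ± 0.786 CPM in VP64 cells and 34.2 ± 0.446 CPM in guide-only cells (SD, n = 2 each), and the groups were far apart relative to the spread within each. The log2 change was -0.76 ± 0.13 (SE, edgeR adjusted p = 0.0191), with a ratio of 0.567 (95% exact interval 0.469 to 0.682). Clusters 6994 and 3083 were the only called lower clusters with whole counts.

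None of the 4 identified clusters passed when a VP64 or a control library was left out. Without VP64 replicate 1 their edgeR adjusted p ran from 0.110 (cluster 14592) to 0.304 (cluster 6994), and without VP64 replicate 2 from 0.189 to 0.288. Without control replicate 1 it ran from 0.0596 to 0.205, and without control replicate 2 from 0.142 to 0.254. The log2 changes themselves moved little, between 0.92 and 1.02 for cluster 22076, 0.82 and 1.03 for cluster 14592, -1.02 and -0.79 for cluster 6994, and -0.80 and -0.73 for cluster 3083. Cluster 22076 also missed the threshold without a VPR library (edgeR adjusted p = 0.0524 and 0.0526) or a SAM library (0.0551 and 0.0573), and cluster 6994 without a SAM library (0.0665 and 0.0678). With an offset of effective length, cluster 22076 missed it as well (edgeR adjusted p = 0.0801).

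**Figure D2:**
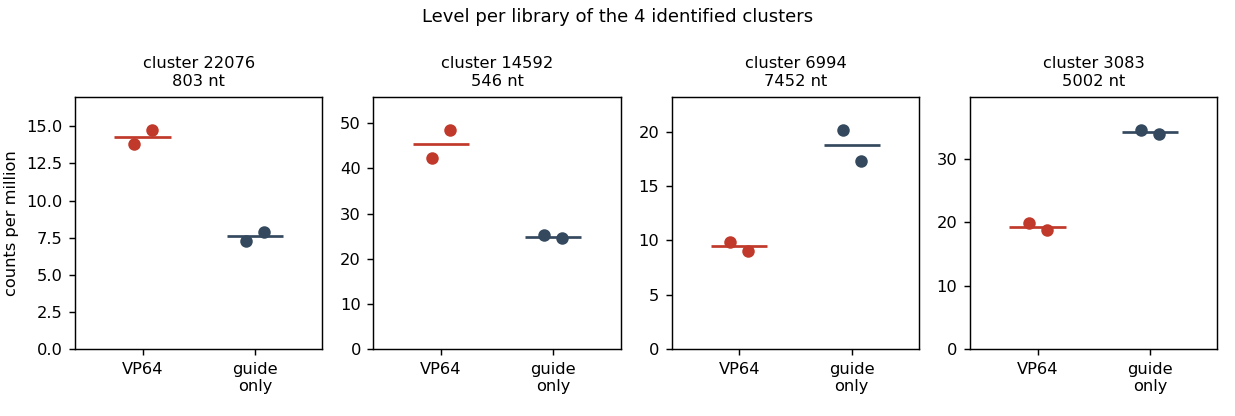
Level in CPM (vertical axis, from 0) of clusters 22076, 14592, 6994 and 3083 in each VP64 library (red) and each guide-only library (dark), with the mean of a group as a line. The 2 libraries of VP64 lie above both control libraries in clusters 22076 and 14592 and below both in clusters 6994 and 3083. This separation was required for a cluster to be identified.

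The 4 identified clusters were also measured in the other activator groups, each set against the same 2 control libraries, so these values are not independent of each other. Cluster 22076 had log2 changes of 1.05 in VPR, 1.39 in SAM and 0.66 in Suntag, with edgeR adjusted p = 0.00637, 0.00263 and 0.131. Cluster 14592 had 1.06, 0.48 and 0.27, with edgeR adjusted p = 0.00126, 0.0905 and 0.419. Beside their values in VP64, these placed VPR nearest for both clusters. Cluster 22076 passed the test in VPR and SAM, and cluster 14592 in VPR alone. Cluster 6994 had -0.72 in VPR, -0.65 in SAM and -0.39 in Suntag (edgeR adjusted p = 0.0268, 0.0606 and 0.295). Cluster 3083 had -0.57, -0.20 and -0.30 (edgeR adjusted p = 0.0106, 0.372 and 0.217).

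Further clusters with whole counts rose by less, and the 3 longest of those described, all over 1500 nt, are given in full. A cluster of 4 transcripts and 2266 nt held 56.4 and 63.9 CPM in the VP64 libraries, against 32.8 and 41.7 CPM in the control libraries, and changed by 0.73 ± 0.12 on the log2 scale (SE, edgeR adjusted p = 0.0191). A cluster of 1 transcript and 3606 nt held 136 and 127 CPM in VP64 cells, against 89.1 and 81.8 CPM in guide-only cells, and changed by 0.69 ± 0.13 on the log2 scale (SE, edgeR adjusted p = 0.0284). A cluster of 2 transcripts and 2630 nt held 53.1 and 52.2 CPM in VP64 cells, against 38.8 and 30.8 CPM in guide-only cells, and changed by 0.67 ± 0.12 on the log2 scale (SE, edgeR adjusted p = 0.0246). The groups did not overlap in any of the 3, as was required of a described cluster. VP64 was higher without overlap in 24.0% of all tested clusters. The 10 largest rises among called clusters with whole counts ran from 0.96 to 0.57 on the log2 scale. Besides clusters 22076 and 14592 and these 3, they were of 649, 692, 917, 927 and 507 nt, so most were short.

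The largest rise among called clusters was that of a pair of clusters of 301 nt, each of 1 transcript. The first held 22.8 and 19.7 CPM in the VP64 libraries, against 4.10 and 2.54 CPM in the control libraries, and the second 27.6 and 26.5 CPM, against 4.92 and 3.56 CPM. The log2 changes were 2.80 ± 0.40 and 2.75 ± 0.34 (SE, edgeR adjusted p = 0.0107 and 0.00880). The counts of each were not whole, but their sums were, at 270 and 153 counts in VP64 cells, against 42 and 37 in guide-only cells. In these 4 libraries one set of reads was thus divided between the 2 clusters, so the level of each alone is uncertain and the sum is the firmer value.

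Summed, the pair stood at 48.3 ± 3.05 CPM in VP64 cells and 7.55 ± 2.07 CPM in guide-only cells (SD, n = 2 each), and the ratio of summed counts was 6.63, with an exact 95% interval of 5.20 to 8.54. Tested as 1 cluster, a step chosen after its values were seen, it changed by 2.77 ± 0.34 on the log2 scale (SE, edgeR adjusted p = 0.00742). The call ended without VP64 replicate 1 or 2 (edgeR adjusted p = 0.115 and 0.0633) and without control replicate 2 (0.110), with log2 changes of 2.71, 2.83 and 2.48. In the other activator groups the sums were 163 and 194 counts in VPR, 182.9 and 270.0 in SAM, and 227 and 89 in Suntag. The sum in SAM replicate 1 was not whole. Depth ran from 3316534 to 7447949 counts over the 10 libraries, so these raw sums cannot be compared as levels.

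For clusters of 6806 and 6807 nt the summed level did not pass the test. The cluster of 6806 nt held 0 counts in both VP64 libraries, against 12.5 and 41.0 counts in the control libraries, and was called lower (edgeR adjusted p = 0.0310). A pair of 6807 nt with counts equal to each other held 20.1 and 13.2 counts each in VP64 cells, against 4.45 and 4.08 in guide-only cells, and both were called higher (log2 change 2.38 ± 0.49 SE, edgeR adjusted p = 0.0383). Summed over the 3 clusters, the level was 7.72 ± 0.291 CPM in VP64 cells and 6.34 ± 2.49 CPM in guide-only cells (SD, n = 2 each). Tested as 1 cluster the log2 change was 0.31 ± 0.29 (SE, edgeR adjusted p = 0.693). It was 0.81 without control replicate 2 and -0.01 without control replicate 1 (edgeR adjusted p = 0.445 and 0.995). These sums were still up to 0.36 away from whole counts, and whether further clusters hold some of the reads was not tested.

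**Figure D3:**
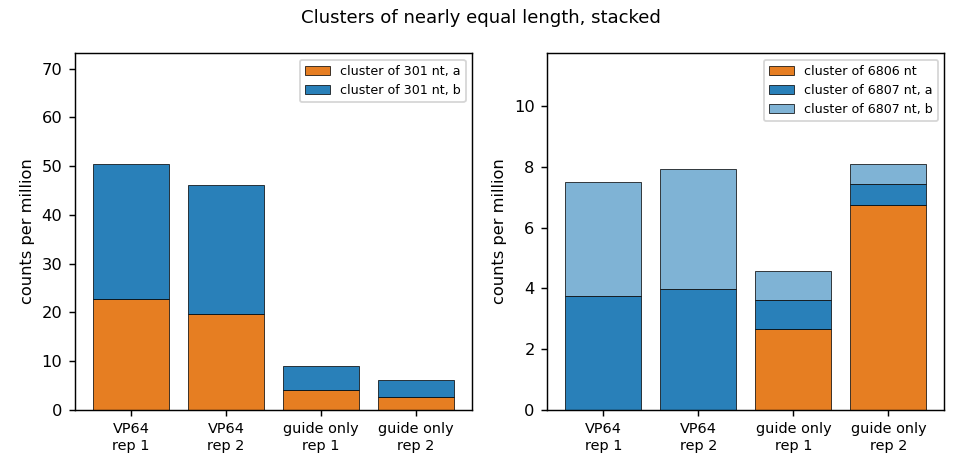
Levels in CPM (vertical axes) of the pair of 301 nt (left) and of the 3 clusters of 6806 and 6807 nt (right), stacked for each VP64 and guide-only library. The pair of 301 nt reaches 50.4 and 46.1 CPM in VP64 cells, against 9.01 and 6.09 CPM in guide-only cells, whereas in the group of 3 it is the division between clusters that differs most.

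Of the other clusters that changed at least 2-fold, 1 was higher and 3 were lower. The higher one, of 1052 nt, held 52.1 and 61.5 CPM in VP64 cells, against 29.0 and 29.6 CPM in guide-only cells (log2 change 1.002 ± 0.172 SE, edgeR adjusted p = 0.0191). A cluster of 3634 nt held 24.2 and 19.4 CPM in VP64 cells, against 51.9 and 67.8 CPM in guide-only cells (log2 change -1.38 ± 0.20 SE, edgeR adjusted p = 0.0107). Clusters of 6790 and 9648 nt had log2 changes of -1.46 ± 0.28 and -1.21 ± 0.24 (SE, edgeR adjusted p = 0.0291 and 0.0331). The first held 30.1 and 38.0 CPM in the VP64 libraries, against 130 and 64.5 CPM in the control libraries, and the second 11.4 and 11.5 CPM, against 20.2 and 34.2 CPM. In both of these clusters the control libraries differed widely from each other.

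Many of the called rises were in abundant clusters, where estimates were also more precise, as given below. The median level of the higher clusters was 112 CPM over the 4 libraries, against 26.7 CPM over all tested clusters. The most abundant of them, of 943 nt, stood at 7532 ± 261 CPM in VP64 cells and 6274 ± 63.8 CPM in guide-only cells (SD, n = 2 each), and rose by 0.33 ± 0.07 on the log2 scale (SE, edgeR adjusted p = 0.0465). The next, of 2187 nt, stood at 3380 ± 113 CPM in VP64 cells and 2373 ± 252 CPM in guide-only cells, and rose by 0.57 ± 0.08 on the log2 scale (SE, edgeR adjusted p = 0.00880). A cluster of 5126 nt was the most abundant of the lower ones, with 949 ± 16.5 CPM in VP64 cells and 1239 ± 31.7 CPM in guide-only cells and a fitted change of -0.32 ± 0.07 on the log2 scale (SE, edgeR adjusted p = 0.0383).

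Among the 100 most abundant clusters, 11 were called higher and 1 lower, against 0.665% and 0.151% of all tested clusters. Their log2 changes ran from -0.57 to 0.57 with a median of 0.10. These 100 clusters took 28.4 ± 0.0661% of the counts in VP64 cells and 26.0 ± 0.420% in guide-only cells (SD, n = 2 each).

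Estimates were less precise, and calls fewer, at low levels. The median SE of a log2 change was 0.64 for the 763 clusters under 2 CPM, 0.16 for clusters of 10 to 50 CPM and 0.08 for those of 200 CPM or more. The share called higher was 0 of the 763, 0.381% at 10 to 50 CPM and 4.27% at 200 CPM or more. Of the 223 clusters with an estimated change of at least 2-fold, 214 were not called, and the median level of these was 1.66 CPM. In clusters of low level, changes of such size mostly did not pass this fit.

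Counts in both VP64 libraries and in no control library were found for 139 clusters, and counts in both control libraries and in no VP64 library for 219. Most of these held under 20 summed counts. With 0 counts in both VP64 libraries and at least 20 summed counts in the control there were 7 clusters, of which 1 had whole counts and 1 was called. With 0 counts in the control and at least 20 in VP64 there were 2, neither with counts in both VP64 libraries at 3 or more, and neither called.

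Cluster 4232, of 4 transcripts and 870 nt, had been singled out in earlier results of these data as the largest rise in SAM among clusters with whole counts. It held 0 and 0 counts in the VP64 libraries, against 0 and 3 in the control libraries. For comparison, it held 88 and 75 counts in VPR, 260 and 295 in SAM, and 106 and 73 in Suntag. A count of 0 allows up to 0.561 CPM in VP64 replicate 1, 0.905 CPM in replicate 2 and 0.346 CPM over both. VP64 and control did not differ by edgeR's test (adjusted p = 0.566), and since neither held more than 3 counts in all, no fold was computed. Such limits and the intervals above reflect counting error alone.

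Transcript length set the called clusters apart. The higher clusters had a median length of 910 nt and the lower ones of 4320 nt, against 2871 nt over all tested clusters. Of the 88 higher clusters, 66 were under 1500 nt (75%), a length class that held 15.02% of tested clusters. Of the 20 lower clusters, 16 had 3000 nt or more, against 6261 of the 13241 tested clusters, and none was under 1500 nt.

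The shift was graded over length and was not confined to called clusters. The 248 clusters under 700 nt had a median log2 change of 0.38, with quartiles of 0.22 and 0.52, and 9.27% of them were called higher. The median was 0.16 for 1741 clusters of 700 to 1500 nt, of which 2.47% were called higher, 0.02 for 4991 of 1500 to 3000 nt, with 0.281% higher, and -0.05 for 6261 of 3000 nt or more, with 0.128% higher. In the last class 0.256% were called lower.

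The same order held at each level of abundance. At 10 to 50 CPM the median log2 change was 0.41 under 700 nt and -0.06 at 3000 nt or more. At 50 to 200 CPM these medians were 0.34 and -0.06, and at 200 CPM or more they were 0.39 and -0.04. Of the 39 clusters under 700 nt with 200 CPM or more, 11 were called higher (28.2%).

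**Figure D4:**
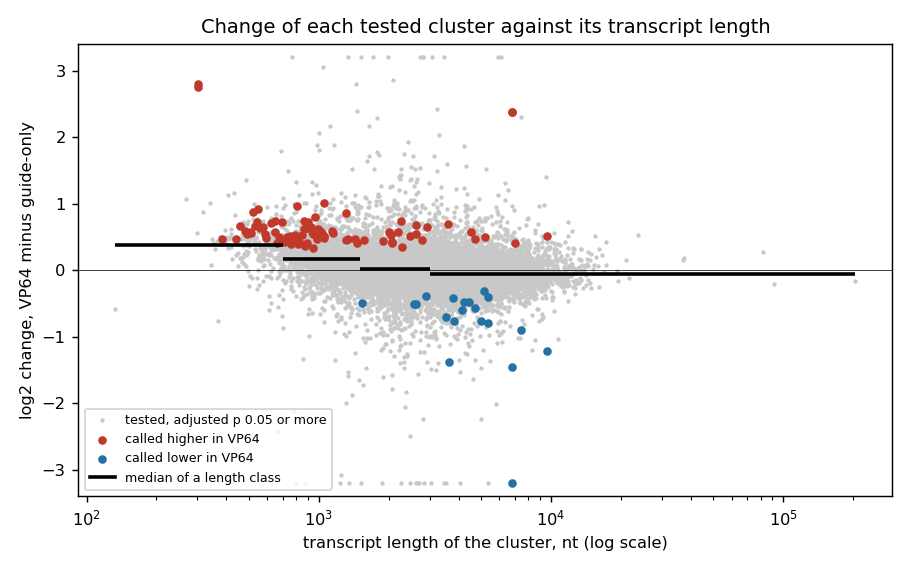
Log2 change between VP64 and guide-only cells (vertical axis, VP64 minus guide-only) of each tested cluster against its transcript length in nt (log axis). Grey points were not called, red points were called higher and blue points lower in VP64, black lines are the medians of the 4 length classes, and values beyond 3.2 in either direction are drawn at that limit. The medians step down from 0.38 under 700 nt to -0.05 at 3000 nt or more.

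A deviation is here the log2 CPM of a cluster in a library less its mean over the 4 libraries. The 2 groups therefore nearly mirror each other, and only their difference is informative. Per library, the median deviation of clusters under 700 nt minus that of clusters over 3000 nt was 0.22 and 0.21 log2 units in the VP64 libraries, against -0.19 and -0.23 in the control libraries. The difference between the groups was 0.42 log2 units, far beyond the spread within either group. An exact permutation test of 2 libraries against 2 gave p = 0.333 (two-sided), the smallest p this design allows. Clusters under 700 nt took 2.99 ± 0.0449% of the counts in VP64 cells and 2.37 ± 0.0331% in guide-only cells (SD, n = 2 each).

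The mean fragment length, derived from the deposited transcript and effective lengths, was 103 and 123 nt in the VP64 libraries, against 133 and 129 nt in the control libraries. Both VP64 libraries thus had shorter fragments (exact two-sided permutation p = 0.333, the smallest possible). This was not particular to VP64, since the libraries of the other activators ran from 89.8 to 116 nt, also below both control libraries. The VP64 libraries differed from each other by more than VP64 replicate 2 differed from either control library. On log2(TPM + 1), which divides by effective length, the short-minus-long difference between the groups was 0.36 log2 units, against 0.42 on CPM. The part of fragment length in the shift was not tested.

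**Figure D5:**
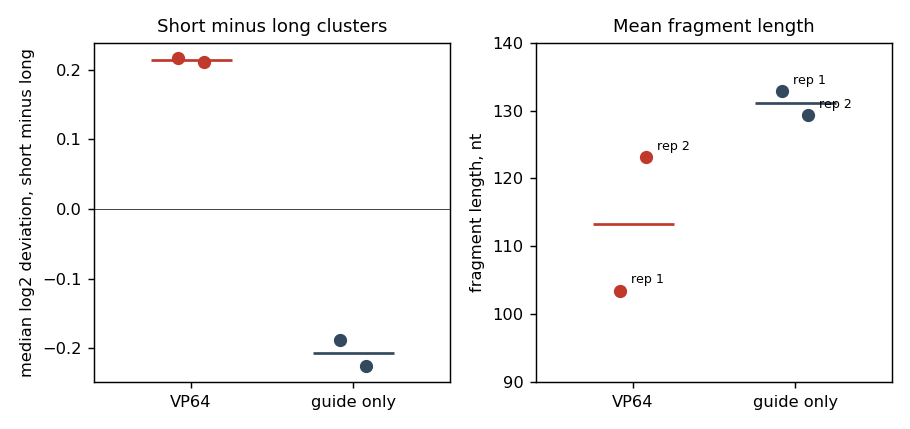
Median log2 deviation of clusters under 700 nt minus clusters over 3000 nt (left) and mean fragment length in nt (right, axis not from 0) of each VP64 library (red) and guide-only library (dark), with group means as lines. The left-hand values lie near 0.21 in VP64 and near -0.21 in guide-only cells. They mirror each other because deviations are taken from the mean over the 4 libraries. The right-hand values are 103 and 123 nt in VP64 cells, against 133 and 129 nt in guide-only cells.

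With the trend of each library on transcript length removed, 19 clusters were called, 15 higher and 4 lower, and all 19 were among the 108. Apart from the pair of 301 nt, all had 1500 nt or more, and 8 had 3000 nt or more. Of the 13241 tested clusters, 15.02% were under 1500 nt and 6261 had 3000 nt or more. The 19 calls were near these shares. The pair kept log2 changes of 2.29 and 2.23 (edgeR adjusted p = 0.0199 and 0.00526). Of the 4 identified clusters only cluster 3083 passed in this fit, with a log2 change of -0.70 (edgeR adjusted p = 0.0386). Clusters 22076, 14592 and 6994 had log2 changes of 0.72, 0.57 and -0.86 with edgeR adjusted p = 0.140, 0.109 and 0.0899.

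The clusters still called higher in that fit included several long and abundant ones. One of 4513 nt stood at 1599 ± 14.2 CPM in VP64 cells and 1125 ± 26.3 CPM in guide-only cells (SD, n = 2 each), and its log2 change was 0.57 as first fitted and 0.63 without the trend (edgeR adjusted p = 0.0112 and 0.0108). One of 9651 nt stood at 249 ± 8.37 CPM in VP64 cells and 183 ± 13.7 CPM in guide-only cells, with log2 changes of 0.51 and 0.54 (edgeR adjusted p = 0.0404 and 0.0362). The cluster of 3606 nt described above had 0.69 and 0.74. These clusters were picked among those still called in that fit, so the 2 log2 values of each are a description only. When the trend was removed, the median log2 change of clusters of 3000 nt or more moved from -0.05 to -0.01.

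The 4 clusters still called lower had 1533, 3634, 4732 and 5002 nt. The one of 3634 nt kept the largest fall, with a log2 change of -1.34 without the trend (edgeR adjusted p = 0.0146). The cluster of 1533 nt stood at 533 ± 15.5 CPM in VP64 cells and 786 ± 22.5 CPM in guide-only cells (SD, n = 2 each), and its log2 change was -0.50 as first fitted and -0.58 without the trend (edgeR adjusted p = 0.0247 and 0.0289). It was likewise picked among the calls of that fit, so its 2 log2 values are a description only.

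Against the same control libraries, the 88 clusters called higher in VP64 had a median log2 change of 0.54 in VP64, 0.63 in VPR, 0.30 in SAM and 0.32 in Suntag. The 20 clusters called lower in VP64 had medians of -0.58 in VP64, -0.45 in VPR, -0.28 in SAM and -0.21 in Suntag. These clusters were picked on the VP64 values, and all 4 contrasts use the same control libraries, so the medians are given side by side as a description. In direct contrasts between activators, which do not use the control, edgeR called none of the 108 clusters between VP64 and VPR, where 0.00755% of all tested clusters were called. At edgeR's unadjusted p under 0.05 there were 14 of the higher and 2 of the lower clusters between VP64 and VPR. The matching counts were 56 and 12 against SAM, and 39 and 14 against Suntag. The share of all tested clusters at that unadjusted threshold is not given here. Between VP64 and SAM, 23 of the 88 higher and 6 of the 20 lower clusters were called, against 4.30% of all tested clusters. Between VP64 and Suntag, 5 of the higher and 2 of the lower ones were called, against 0.234% of all tested clusters. These contrasts use the VP64 libraries on which the clusters were picked.

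Clusters with 1 annotated transcript were called higher in 1.18% of 2631 cases, those with 2 to 3 transcripts in 0.711% of 5061 and those with 4 or more in 0.378% of 5549. The median log2 changes of these classes were 0.01, 0.00 and -0.01, and their shares called lower were 0.266%, 0.0593% and 0.180%.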

How the data were processed

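HEK293T poly(A) RNA-seq libraries were compared, 2 of VP64 and 2 of the guide-only control, grouped by their titles. Per the labels' protocols, libraries were primed with random hexamers and tagmented, which does not mark the strand, so overlapping and antisense genes cannot be told apart. Per the submitters' processing notes, RSEM 1.2.1 and the hg19 build were used, with an annotation that the sources do not name. The authors deposited, per the file headers, expected counts (estimated counts, not whole where reads fit several transcripts), TPM values and transcript and effective lengths. Lengths were averaged over the 10 libraries.

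After rounding, edgeR 4.0.16 (R 4.3.3) was run with filterByExpr and TMM factors. Its quasi-likelihood F test used a single model of the 10 libraries in 5 groups (5 residual degrees of freedom), with Benjamini-Hochberg adjustment over 13241 clusters. DESeq2 1.42.0 was an alternative. SE is the log2 change divided by the square root of F. Ratios of summed counts have exact 95% intervals for Poisson rates, which cover counting error only. CPM values use summed expected counts as library totals. Fragment length is the median of length less effective length over clusters above 3000 nt. The length trend was a loess fit (span 0.5) per library. Identified clusters are the 2 largest called changes each way with at least 1 CPM, counts within 0.01 of whole and groups that do not overlap. The 10 largest with and without whole counts could be described, and the long, abundant and read-sharing clusters were chosen after their values were seen. The members, length classes and lists were chosen with earlier results of these data known.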

Additional observations from a re-analysis of the deposited data

Results flagged for a closer look

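Cluster 4232 stood out by differences between VP64 and the other activators in edgeR's test. Among all tested clusters it was the only one that was called and at least 2-fold different between VP64 and more than 1 other activator. It had been singled out by its rise in SAM, and it passed the filter on low counts only through VPR, SAM and Suntag libraries. Its calls against these groups are therefore no independent evidence of a difference. The log2 difference of VP64 from another activator nearest to 0 was -9.13, against VPR (edgeR adjusted p = 0.00216). It was -9.34 against Suntag (edgeR adjusted p = 0.00102) and -11.44 against SAM (edgeR adjusted p = 3.88e-07). These are fitted values against 0 counts in both VP64 libraries and are no measure of size. Without VP64 replicate 1 the calls against VPR and Suntag ended, at edgeR adjusted p = 0.0867 and 0.138, with 0 counts in VP64 replicate 2. The call against SAM passed in each fit without 1 of the 10 libraries.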

How the results depend on the processing

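The number of calls moved widely. Against 108 calls (88 higher, 20 lower, 9 at least 2-fold), DESeq2 gave 163, with 38 lower and 3 at least 2-fold. Fitting without a filter on low counts gave 533 (356 higher, 177 lower, 72 at least 2-fold). The 4 libraries alone gave 617 (418 higher, 199 lower, 31 at least 2-fold). Removing the length trend gave 19 (15 higher, 4 lower, 3 at least 2-fold), and an offset of effective length gave 44 (35 higher, 9 lower, 4 at least 2-fold). The cause of these moves was not tested. RLE factors gave 108, and the fit with summed clusters, added after seeing the data, gave 101. Leaving out 1 library gave 0 to 362 calls, with 0 to 268 higher, 0 to 94 lower and 0 to 18 at least 2-fold. The log2 value of -7.59 fitted for the cluster of 6806 nt against 0 counts, which is no measure of size, became a log2 change of 0.31 once summed with its neighbours in length.

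With the replicate number as a block there were 68 calls, 57 higher, 11 lower and 6 at least 2-fold, and 65 of them were among the 108. Deviations of same-numbered libraries correlated at 0.00402 between VP64 and the control and between -0.0672 and 0.0620 over all pairs of groups, so the numbers did not pair the libraries. Under the block, clusters 22076 and 6994 missed the threshold (edgeR adjusted p = 0.0632 for each).

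The short-minus-long difference kept its direction in all alternatives, from 0.34 log2 units between clusters under 1000 and over 5000 nt to 0.45 without control replicate 1, and so did the fragment length difference, from -27.6 to -7.96 nt. The 4 identified clusters kept their direction in every fit that gave a value. DESeq2 gave no adjusted p for clusters 22076, 6994 and 3083. No call was made among clusters under 2 CPM, where the median SE of a log2 change was 0.64.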
